A study of Mus musculus with 30 samples.

Results

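Messenger RNA of 10 immune checkpoint genes was followed across 30 mammary tumors. The genes were taken by symbol from the deposited table of 21841 genes and comprise 5 ligands or counter-receptors (Cd274, Pdcd1lg2, Cd276, Vsir and Lgals9) and 5 receptors (Havcr2, Pdcd1, Ctla4, Lag3 and Tigit). All 10 were in the table, and 6 had enough reads for a test in all groups together, namely Cd274, Cd276, Vsir, Lgals9, Havcr2 and Lag3. Bulk RNA was sequenced from FVB/N-Tg(MMTV-PyVT)634Mul/J tumors. In these animals the mouse mammary tumor virus promoter drives polyoma middle T antigen in mammary epithelium, and the labels give the genotype of every animal as WT and no age. The 6 groups of 5 tumors received vehicle, 5-fluorouracil (5-FU, 40 mg/kg every 4 days), gemcitabine (64 mg/kg every 7 days), the heme oxygenase-1 inhibitor KCL-HO-1i (25 µmol/kg daily), KCL-HO-1i/5-FU (the 5-FU combination), or KCL-HO-1i/gemcitabine (the gemcitabine combination), all by intraperitoneal injection over 72 h. Times and doses are those of the labels. The study's text gives a shorter treatment and a lower gemcitabine dose for these tumors, and which holds cannot be told here. 5-FU and gemcitabine are cytotoxic antimetabolites, and heme oxygenase-1 degrades heme. The design text assigns 5 mice to each group. The labels also carry 13 code numbers of unstated meaning, 7 of which occur in several groups.

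Immune checkpoints are receptor and ligand pairs that restrain T cells. PD-1 (Pdcd1) on activated T cells binds PD-L1 (Cd274) and PD-L2 (Pdcd1lg2), CTLA-4 (Ctla4) competes with CD28 for CD80 and CD86, LAG-3 (Lag3) binds MHC class II, TIGIT binds the poliovirus receptor family, and TIM-3 (Havcr2) binds galectin-9 (Lgals9) and is carried by macrophages and dendritic cells as well as by T cells. VISTA (Vsir) is abundant on myeloid cells, and B7-H3 (Cd276) is a B7 family protein found on tumor, stromal and endothelial cells. PD-L1 is induced by interferon gamma through JAK and STAT proteins and interferon regulatory factors (IRF). In bulk tumor RNA, fewer cells of a type and less RNA per cell cannot be told apart.

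The 250 bases before the start of Cd274, Lgals9 and Oas3, the gene closest to Lgals9 in pattern (described further on), are shown because interferon is the textbook inducer of all of them. They are RefSeq sequences of GRCm38.p6, 5′ to 3′ on the strand of the gene, with any match to the IRF pattern, 2 copies of GAAA with any 2 bases between them, on either strand in capitals.
Cd274, chr19:29367188-29367437, plus strand: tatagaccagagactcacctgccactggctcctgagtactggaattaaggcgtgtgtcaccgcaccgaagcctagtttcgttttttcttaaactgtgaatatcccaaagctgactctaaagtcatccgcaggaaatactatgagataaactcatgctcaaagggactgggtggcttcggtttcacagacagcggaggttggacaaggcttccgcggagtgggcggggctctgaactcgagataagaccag
Lgals9, chr11:78984925-78985174, minus strand: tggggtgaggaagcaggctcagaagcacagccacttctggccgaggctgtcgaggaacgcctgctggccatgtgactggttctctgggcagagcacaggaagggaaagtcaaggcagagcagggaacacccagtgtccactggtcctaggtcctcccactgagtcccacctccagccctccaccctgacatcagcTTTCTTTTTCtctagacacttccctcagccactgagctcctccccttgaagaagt
Oas3, chr5:120777660-120777909, minus strand: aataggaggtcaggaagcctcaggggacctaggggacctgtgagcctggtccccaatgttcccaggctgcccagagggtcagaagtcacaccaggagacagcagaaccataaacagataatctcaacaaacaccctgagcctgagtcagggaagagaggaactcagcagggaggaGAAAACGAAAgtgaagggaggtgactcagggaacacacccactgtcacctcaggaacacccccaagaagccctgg
Such windows were found for 9 of the 10 checkpoint genes (none for Lag3). Lgals9 held 1 IRF match, on the strand opposite to the gene from 55 to 46 bases before its start, and the other 8 held none. The pattern was present in 2.98% of 32841 promoter windows of the same length. No checkpoint gene held the STAT pattern TTCNNNGAA (7.02% of all windows), and Tigit held 1 match to the antioxidant response pattern TGACNNNGC (10.2% of all windows), 39 to 31 bases before its start. These matches are descriptions of letters in a window and do not show binding.

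Library totals ran from 10067698 to 13622395 counts, so 3 reads corresponded to 0.215 to 0.302 CPM (read counts relative to the TMM effective library size). Mitochondrial genes took 1.44% to 9.69% of counts, and the 2 highest shares were those of KCL-HO-1i replicate 4 (9.69%) and gemcitabine combination replicate 2 (4.54%). The tissue label was borne out by epithelial markers, of which 8 of 8 were tested and whose summed level was 2438 to 5800 CPM per tumor. Macrophage markers (12 of 12 tested) summed to 205 to 1033 CPM, whereas T cell markers summed to 6.66 to 41.4 CPM with 8 of 14 tested, and the regulatory T cell gene Foxp3 and the cytotoxic genes Prf1 and Ifng were below the filter. A trio of libraries stood apart, which was examined after the checkpoint values were seen. KCL-HO-1i replicate 4, 5-FU combination replicate 3 and gemcitabine combination replicate 2 had endothelial scores (mean log2 CPM of 7 markers) of 4.99, 5.09 and 5.66 against at most 4.05 in the other libraries. KCL-HO-1i replicate 4 and gemcitabine combination replicate 2 also had adipocyte scores of 8.68 and 9.27 and skeletal muscle scores of 8.43 and 10.1, whereas 5-FU combination replicate 3 had 4.12 and -1.60. Results that rest on these libraries are given with and without them.

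Per kilobase of exon, Lgals9 was the most abundant checkpoint transcript, with a median over 30 tumors of 53.8 CPM per kb. Vsir followed at 11.8, Cd276 at 9.07 and Havcr2 at 2.34 CPM per kb, and Vsir and Cd276 overlapped (6.68 to 24.3 against 5.60 to 19.8 CPM per kb). Lag3 at 0.580 and Cd274 at 0.483 CPM per kb were alike in range (0.107 to 1.44 and 0.185 to 3.20 CPM per kb). Below them lay Pdcd1 at 0.163, Ctla4 at 0.0397, Pdcd1lg2 at 0.0189 and Tigit at 0 CPM per kb. The ligands other than PD-L2, and TIM-3, had more transcript per length than the receptors PD-1, CTLA-4 and TIGIT in these tumors. Cd274 and Pdcd1lg2 are neighbors on chromosome 19 of GRCm38 (29367455 to 29388095 and 29410919 to 29471161, both on the plus strand, 22.8 kb apart), yet Cd274 gave 893 reads over all libraries and Pdcd1lg2 gave 27.

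No checkpoint gene passed an adjusted p of 0.05 in any of the 13 comparisons by edgeR's quasi-likelihood test with Benjamini-Hochberg adjustment over 13663 genes. The background was as sparse: 0.00% of tested genes passed in each of the 5 comparisons with vehicle, the 4 between a combination and 1 of its agents and both interactions, 0.0586% passed in the KCL-HO-1i average (the mean of the KCL-HO-1i difference in mice given no chemotherapy, 5-FU or gemcitabine), and 0.651% differed anywhere among the 6 groups. At an unadjusted p under 0.05, 0 of 6 genes passed for 5-FU and for gemcitabine, 1 for KCL-HO-1i alone (Cd274), 2 for the 5-FU combination (Cd276 and Vsir), 1 for the gemcitabine combination (Vsir) and 1 for the average (Cd274). The corresponding shares of all tested genes were 3.89%, 3.83%, 9.43%, 17.6%, 19.8% and 23%. Vsir also passed unadjusted for the 5-FU combination and for the gemcitabine combination against KCL-HO-1i alone, beside 16.9% and 2.66% of genes. By the limits that the authors used (a log2 fold change past 0.6 with an unadjusted p under 0.05), 0 of 6 genes passed upward for 5-FU (1.19% of all tested genes), and those that passed elsewhere are given with their values. limma-voom called 0 in every comparison. DESeq2 called 1 gene, Cd274, in the average and 0 in the others. The shares above are those of edgeR, and no share of all genes was taken for limma-voom or DESeq2.

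**Figure D1:**
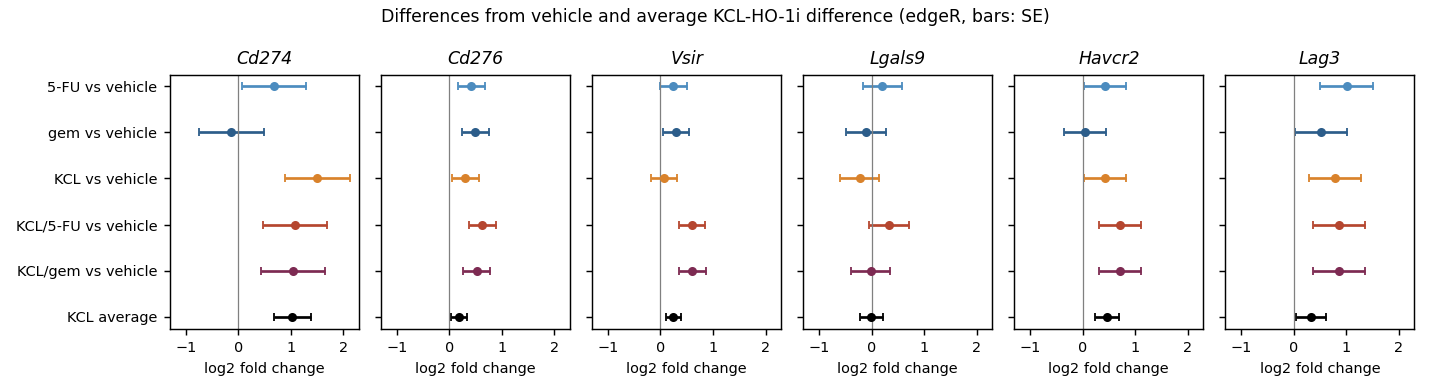
The log2 fold changes (horizontal axes) of the 6 tested checkpoint genes are shown for each treatment against vehicle and for the KCL-HO-1i average (KCL, KCL-HO-1i), with points for the edgeR estimate and bars for 1 SE (gem, gemcitabine). Most points lie to the right of 0, from -0.23 for Lgals9 with KCL-HO-1i alone to 1.50 for Cd274 with KCL-HO-1i alone, and no comparison passed the adjusted threshold.

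The direction was mostly upward. Of the 6 tested genes, 6 had a log2 fold change above 0 for 5-FU (50.2% of all tested genes), 4 for gemcitabine (55.5%), 5 for KCL-HO-1i alone (47.9%), 6 for the 5-FU combination (51.4%), 5 for the gemcitabine combination (52.5%) and 5 for the average (49.8%). The median log2 fold change of the 6 was 0.42 for 5-FU, 0.17 for gemcitabine, 0.37 for KCL-HO-1i alone, 0.67 for the 5-FU combination, 0.66 for the gemcitabine combination and 0.29 for the average, with medians over all genes between -0.01 and 0.03. The comparisons with vehicle share the 5 vehicle tumors, so their directions are not independent. The pan-leukocyte score (mean log2 CPM of 10 markers) had a mean of 2.79 in vehicle tumors and of 3.54, 3.30, 3.79, 3.87 and 4.16 in tumors given 5-FU, gemcitabine, KCL-HO-1i, the 5-FU combination and the gemcitabine combination. Without the 3 libraries of high endothelial score, the 6 medians in the same order were 0.42, 0.16, 0.33, 0.45, 0.56 and 0.17, and the limits of the authors were passed upward by 1 gene for 5-FU (Lag3), 1 for the gemcitabine combination (Vsir) and 0 in the other 4. The share of all genes past these limits was not taken in that fit.

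PD-L1 transcript was highest in a few KCL-HO-1i tumors. Cd274 stood at 1.03, 1.38, 1.76, 2.37 and 0.669 CPM in vehicle tumors, at 3.18, 2.52, 2.62, 1.14 and 2.15 CPM after 5-FU, and at 1.47, 1.50, 1.10, 1.01 and 1.49 CPM after gemcitabine. With KCL-HO-1i alone it stood at 1.08, 3.06, 3.29, 11.6 and 1.57 CPM, with the 5-FU combination at 1.21, 0.816, 8.98, 2.47 and 1.80 CPM, and with the gemcitabine combination at 2.08, 7.14, 1.49, 1.73 and 2.51 CPM. Every KCL-HO-1i group held a single tumor far above its other 4, and apart from these the ranges of the 6 groups overlapped. These values rest on 9 to 117 reads per library. The group means were 1.44 ± 0.659 CPM for vehicle and 4.12 ± 4.30, 3.06 ± 3.37 and 2.99 ± 2.35 CPM for the 3 KCL-HO-1i groups (SD, n = 5).

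The log2 fold change of Cd274 over vehicle was 1.50 (SE 0.61, adjusted p = 0.428) for KCL-HO-1i alone, 1.07 (SE 0.61, adjusted p = 0.369) for the 5-FU combination, 1.04 (SE 0.61, adjusted p = 0.367) for the gemcitabine combination and 0.68 (SE 0.61, adjusted p = 0.999) for 5-FU. Its average over the 3 backgrounds was 1.02 (SE 0.35, unadjusted p = 0.0072, adjusted p = 0.0931), past the limits of the authors, as were 9.24% of tested genes in the upward direction. The same limits were passed by 6.59% for KCL-HO-1i alone, Cd274 among them. Over the matching chemotherapy, the KCL-HO-1i difference of Cd274 was 0.39 (SE 0.60) with 5-FU and 1.17 (SE 0.61) with gemcitabine. This difference was not shown to depend on chemotherapy, since neither interaction term passed by edgeR. The terms were -1.11 (SE 0.85, unadjusted p = 0.203) for 5-FU and -0.33 (SE 0.86, unadjusted p = 0.705) for gemcitabine. With SEs of this size a dependence was not excluded.

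The 3 high Cd274 tumors were the 3 of highest endothelial score, and those at 11.6 and 7.14 CPM had the highest mitochondrial shares (9.69% and 4.54%), whose part in the Cd274 level was not tested. The tumors at 8.98 and 7.14 CPM carried label code 70, which occurred in KCL-HO-1i groups alone and whose other 2 tumors stood at 3.06 and 3.29 CPM. The tumor at 11.6 CPM shared code 69 with 5-FU replicate 4, at 1.14 CPM. With the label code as a covariate the average was 1.46, but only 1 of the 4 codes among vehicle tumors occurred in another group. Vehicle thus entered that fit through vehicle replicate 1 alone. Without the 3 tumors, the average was 0.21 (adjusted p = 0.708) and the KCL-HO-1i difference 0.63 (adjusted p = 0.965). This leaves out the highest Cd274 tumor of each KCL-HO-1i group and none of the other groups. A fall in these values was therefore fixed by the choice of tumors. Without KCL-HO-1i replicate 4 alone, the KCL-HO-1i difference was also 0.63. Without 5-FU combination replicate 3, the 5-FU combination difference was 0.12, and without gemcitabine combination replicate 2, the gemcitabine combination difference was 0.42. DESeq2 gave an average of 1.04 (adjusted p = 0.0447) and limma-voom, which weighted libraries by quality, 0.33 (adjusted p = 0.506). Over all alternatives the adjusted p of the average ran from 0.0447 to 0.968.

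B7-H3 was measured with 221 to 874 reads per library. Cd276 stood at 25.4, 29.7, 22.6, 26.0 and 30.6 CPM in vehicle tumors, at 41.9, 33.5, 35.7, 36.2 and 32.6 CPM after 5-FU, at 71.4, 33.4, 20.2, 27.3 and 36.6 CPM after gemcitabine, and at 32.9, 30.0, 49.6, 27.5 and 25.6 CPM after KCL-HO-1i alone. With the 5-FU combination it stood at 28.0, 40.5, 64.3, 43.1 and 31.7 CPM, and with the gemcitabine combination at 34.5, 37.3, 56.9, 32.5 and 31.6 CPM. All 5 tumors given 5-FU, and all 5 given the gemcitabine combination, lay above all 5 vehicle tumors, which was so for 0.315% and 2.20% of tested genes in the upward direction, and the other groups overlapped vehicle.

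The edgeR fit, whose spread is shared over 30 libraries, put the log2 fold change of Cd276 at 0.42 (SE 0.26, adjusted p = 0.999) for 5-FU, 0.49 (SE 0.26, adjusted p = 0.941) for gemcitabine and 0.30 (SE 0.26, adjusted p = 0.825) for KCL-HO-1i alone. The combinations gave 0.63 (SE 0.26, unadjusted p = 0.0211, adjusted p = 0.203) with 5-FU, past the limits of the authors together with 7.49% of genes, and 0.52 (SE 0.26, adjusted p = 0.258) with gemcitabine. The KCL-HO-1i average of Cd276 was 0.18 (SE 0.15, adjusted p = 0.498), and it was 0.11 without replicate 3 of KCL-HO-1i alone or of either combination and 0.29 without gemcitabine replicate 1. The combination with 5-FU turned on 1 tumor, since the value was 0.42 without 5-FU combination replicate 3. Likewise the gemcitabine value was 0.12 without gemcitabine replicate 1, the tumor at 71.4 CPM, the KCL-HO-1i value 0.10 without KCL-HO-1i replicate 3, at 49.6 CPM, and the gemcitabine combination value 0.31 without its replicate 3, at 56.9 CPM.

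VISTA was higher in both combinations than in vehicle tumors at an unadjusted p and not at an adjusted one. Vsir stood at 54.5, 58.4, 45.6, 50.0 and 50.6 CPM in vehicle tumors and at 46.3, 59.1, 63.6, 54.9 and 48.3 CPM after KCL-HO-1i alone. With the 5-FU combination it stood at 47.2, 105, 105, 78.5 and 57.7 CPM, and with the gemcitabine combination at 58.1, 69, 120, 78.8 and 69 CPM. With the 5-FU combination, 2 tumors lay within the vehicle range and 3 above it, and with the gemcitabine combination 1 lay within it and 4 above. The single chemotherapies spread widely, from 45.7 to 82.5 CPM after 5-FU and from 33.0 to 90.5 CPM after gemcitabine.

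The log2 fold change of Vsir over vehicle was 0.60 (SE 0.25, unadjusted p = 0.0233, adjusted p = 0.209) for the 5-FU combination and 0.61 (SE 0.25, unadjusted p = 0.0222, adjusted p = 0.169) for the gemcitabine combination, and its KCL-HO-1i average was 0.25 (SE 0.14, adjusted p = 0.314). Both combinations sat at the limits of the authors, which 7.49% and 10.2% of genes passed upward. Without gemcitabine combination replicate 3, at 120 CPM, the second value was 0.39. Without the 3 libraries of high endothelial score, the values were 0.48 and 0.64. Over KCL-HO-1i alone, edgeR gave Vsir 0.53 with the 5-FU combination (unadjusted p = 0.0429, adjusted p = 0.279). The gemcitabine combination gave 0.54 over KCL-HO-1i alone (unadjusted p = 0.041), also not past the adjusted threshold. Over the matching chemotherapy, the differences were 0.36 with 5-FU (unadjusted p = 0.164) and 0.31 with gemcitabine (unadjusted p = 0.222).

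Galectin-9, the ligand of TIM-3, varied more among tumors of 1 group than between groups, as did the other checkpoint genes. Lgals9 ran from 44.6 to 116 CPM in vehicle tumors, 22.4 to 179 CPM after 5-FU, 39.5 to 97.8 CPM after gemcitabine, 41.1 to 120 CPM after KCL-HO-1i alone, 61.3 to 141 CPM with the 5-FU combination and 57.7 to 103 CPM with the gemcitabine combination. All 6 ranges overlapped, and differences among groups took 8.88% of its variance on the log2 scale. The share was 18% (Lag3) to 25.6% (Vsir) for the other tested checkpoint genes. Groups that do not differ also take some share, which was not computed here, so these shares are descriptions. The KCL-HO-1i average of Lgals9 was -0.01 (SE 0.22, adjusted p = 0.988). PD-L2, the second ligand of PD-1, was seen in 15 of 30 libraries with at most 4 reads in any of them.

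**Figure D2:**
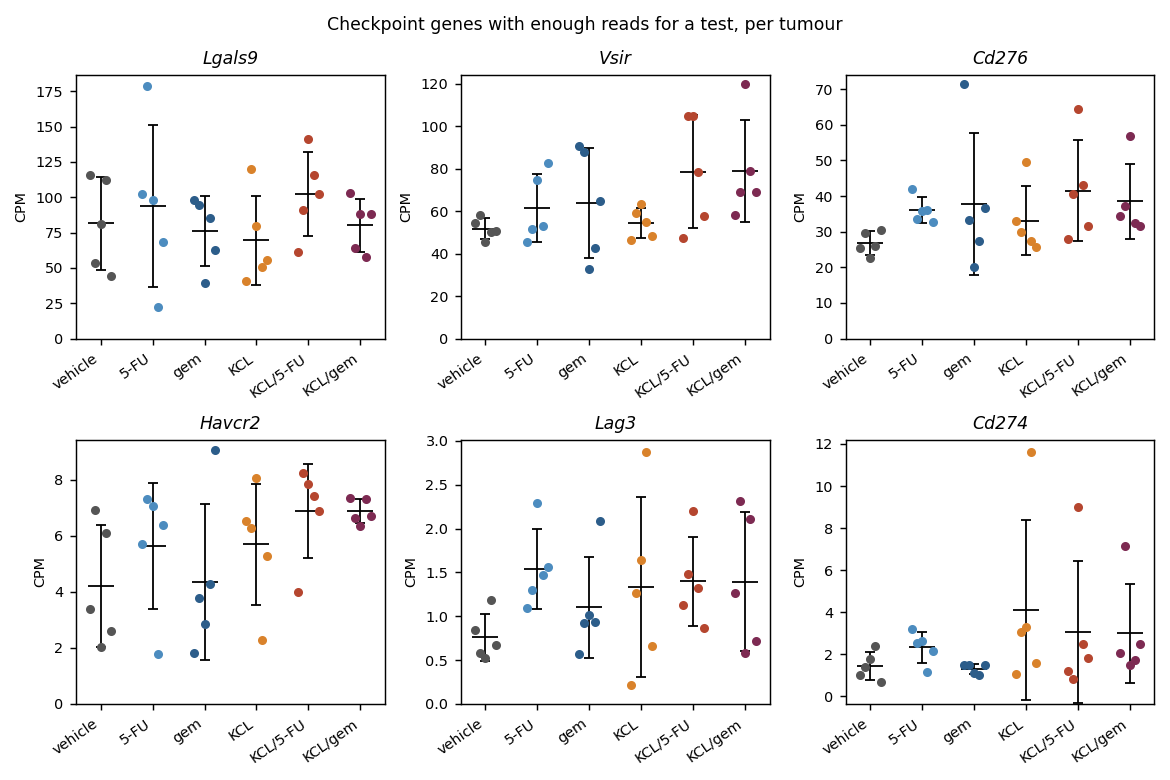
The level of each tested checkpoint gene in every tumor is shown in CPM by group (KCL, KCL-HO-1i and gem, gemcitabine), with the mean and SD of 5 tumors as lines. Single tumors carry the high Cd274 means of the KCL-HO-1i groups (11.6, 8.98 and 7.14 CPM), and Havcr2 with the gemcitabine combination lies in a narrow band of 6.36 to 7.34 CPM.

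TIM-3 was the most abundant of the 5 receptors per length. Havcr2 stood at 3.38, 6.90, 2.02, 6.11 and 2.60 CPM in vehicle tumors, at 5.69, 7.30, 7.05, 1.79 and 6.37 CPM after 5-FU, and at 1.80, 3.76, 2.84, 4.27 and 9.04 CPM after gemcitabine. With KCL-HO-1i alone it stood at 6.53, 6.26, 8.06, 2.29 and 5.28 CPM, with the 5-FU combination at 4.00, 8.23, 7.84, 7.41 and 6.89 CPM, and with the gemcitabine combination at 7.34, 6.64, 6.36, 7.31 and 6.71 CPM. The 5 tumors of the last group lay close together near the top of the vehicle range, with an SD of 0.434 CPM against 2.17 CPM in vehicle tumors, and the single chemotherapies spanned nearly the whole range.

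The log2 fold change of Havcr2 over vehicle was 0.71 (SE 0.40, adjusted p = 0.366) for the 5-FU combination, 0.71 (SE 0.40, adjusted p = 0.343) for the gemcitabine combination and 0.44 (SE 0.40, adjusted p = 0.848) for KCL-HO-1i alone. The value for KCL-HO-1i alone was 0.24 without vehicle replicate 3, 0.28 without vehicle replicate 5, 0.27 without KCL-HO-1i replicate 3 and 0.67 without vehicle replicate 2. Its KCL-HO-1i average was 0.46 (SE 0.23, unadjusted p = 0.0553, adjusted p = 0.229). The average was 0.51 without the 3 libraries of high endothelial score (adjusted p = 0.355), among which KCL-HO-1i replicate 4 had a low level of 2.29 CPM.

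LAG-3 was counted with 3 to 29 reads per library. Lag3 stood at 0.846, 0.581, 0.528, 1.19 and 0.669 CPM in vehicle tumors, at 1.09, 1.30, 2.29, 1.47 and 1.56 CPM after 5-FU, and at 0.572, 0.918, 1.01, 0.931 and 2.09 CPM after gemcitabine. With KCL-HO-1i alone it stood at 0.215, 1.27, 1.64, 2.88 and 0.660 CPM, with the 5-FU combination at 1.13, 1.48, 2.20, 1.32 and 0.861 CPM, and with the gemcitabine combination at 1.26, 2.31, 0.578, 2.11 and 0.716 CPM. After 5-FU, 4 of 5 tumors lay above all vehicle tumors, and in each KCL-HO-1i group the tumor with the highest Lag3 was also the tumor with the highest Cd274. The log2 fold change was 1.01 (SE 0.50, unadjusted p = 0.0537, adjusted p = 0.999) for 5-FU, 0.79 (SE 0.50) for KCL-HO-1i alone, 0.87 (SE 0.50) for the 5-FU combination, 0.86 (SE 0.50) for the gemcitabine combination and 0.33 (SE 0.28, adjusted p = 0.520) for the KCL-HO-1i average. Without KCL-HO-1i replicate 4, at 2.88 CPM, the KCL-HO-1i value was 0.30 and the average 0.17. The Lag3 average was 0.01 (adjusted p = 0.990) without the 3 libraries of high endothelial score. These were also the highest for Lag3 in their groups, so a fall was fixed by their choice.

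PD-1, CTLA-4 and TIGIT were near the limit of detection at this depth. Pdcd1 gave 2, 7, 3, 1 and 0 reads in vehicle tumors, 5, 11, 2, 0 and 9 after 5-FU, 3, 8, 3, 6 and 3 after gemcitabine and 2, 8, 1, 1 and 4 after KCL-HO-1i alone. With the 5-FU combination it gave 2, 4, 9, 13 and 10 reads, and with the gemcitabine combination 2, 4, 14, 6 and 5 reads. All groups overlapped, with the highest counts in the combinations. The difference in mean log2(CPM + 1) from vehicle was 0.40 for the 5-FU combination (p = 0.0794, adjusted over the 5 treatments p = 0.252) and 0.31 for the gemcitabine combination (p = 0.111, adjusted p = 0.252) by a two-sided exact permutation test of 5 against 5 tumors, in which the smallest possible p is 0.00794.

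Ctla4 gave 33 reads in all, in 18 of 30 libraries and never more than 5. Tigit gave 23 reads, in 13 libraries and never more than 4. The 5 tumors given the gemcitabine combination held 0 reads of Tigit. Each library taken alone allows a level of up to 3 reads, or 0.222 to 0.302 CPM in this group. The exact permutation p of Tigit against vehicle was 0.444. No difference in these transcripts was detectable at this depth.

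**Figure D3:**
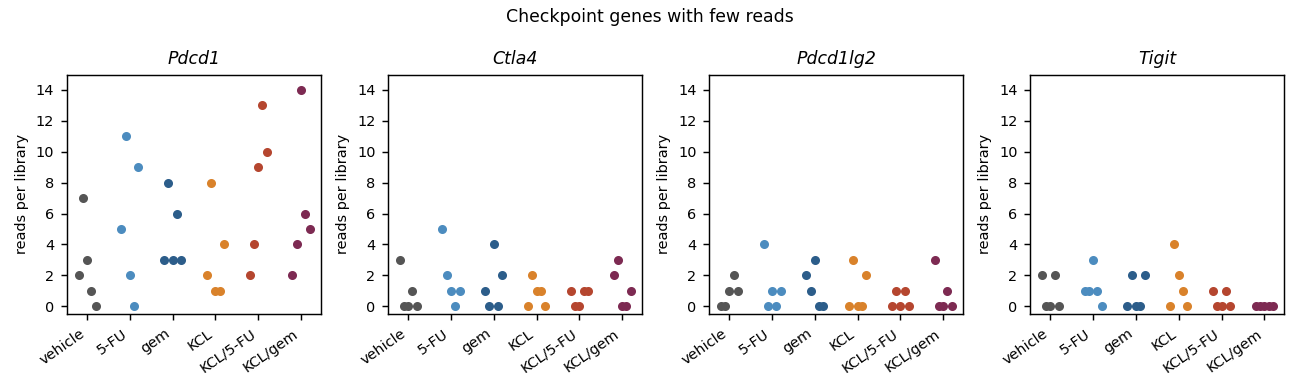
Reads per library (vertical axis) are shown by group for the 4 checkpoint genes that were too low for the test, 1 point per tumor (KCL, KCL-HO-1i and gem, gemcitabine). Pdcd1 reached 14 reads, and Ctla4, Pdcd1lg2 and Tigit stayed at or below 5.

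Among tumors of the same treatment, TIM-3 moved with macrophage markers. The slope of Havcr2 on the macrophage score (mean log2 CPM of 12 markers) within groups was 0.68 (SE 0.14, adjusted p = 0.00149), in log2 units of the gene per log2 unit of the score. Cd274 gave 0.80 (SE 0.25, adjusted p = 0.0349), Lag3 0.58 (SE 0.19, adjusted p = 0.0513), Lgals9 0.37 (SE 0.19, adjusted p = 0.209), Vsir 0.17 (SE 0.12, adjusted p = 0.380) and Cd276 0.09 (SE 0.12, adjusted p = 0.658). The Lgals9 slope was 0.17 without 5-FU replicate 4. Thus 2 of 6 checkpoint genes had a positive slope past the threshold, where 8.21% of all tested genes did. The Havcr2 slope held its call without any 1 library (0.60 to 0.74) and was 0.81 (adjusted p = 3.9e-05) without the 3 libraries of high endothelial score.

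The slope of Cd274 was less secure. It was 0.36 (adjusted p = 0.217) without those 3 libraries, and it missed the threshold on leaving out vehicle replicate 4, 5-FU replicate 4, KCL-HO-1i replicate 5, 5-FU combination replicate 1, 3 or 5, or gemcitabine combination replicate 2 or 3, with a lowest value of 0.59. On the pan-leukocyte score, the slopes were 0.69 (SE 0.18, adjusted p = 0.0126) for Havcr2, 0.86 (SE 0.27, adjusted p = 0.048) for Cd274 and 0.70 (SE 0.23, adjusted p = 0.053) for Lag3, with 7.20% of genes called upward. The Havcr2 call was lost without gemcitabine replicate 5 (0.57, adjusted p = 0.0855), and that of Cd274 was lost in 21 of 30 such refits (all but those without vehicle replicate 1, 2 or 3, gemcitabine replicate 1, 3 or 5, KCL-HO-1i replicate 3 or 4, or 5-FU combination replicate 2) and with the 3 libraries left out (0.36).

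With the T cell score, no checkpoint gene moved past the threshold. The edgeR test called 0 of 6 (0 also at an unadjusted p under 0.05), beside 0.146% of all tested genes, and Lag3 had the largest slope at 0.53 (SE 0.28, adjusted p = 0.459), or 0.81 without gemcitabine replicate 3. With the pan-leukocyte score as a covariate, the KCL-HO-1i averages in the edgeR fit were 0.07 for Havcr2 (adjusted p = 0.985) and 0.19 for Cd274 (adjusted p = 0.968). Those of Vsir and Cd276 changed little, from 0.25 to 0.23 and from 0.18 to 0.17. Lag3 stood at -0.20 and Lgals9 at -0.21 with the covariate.

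Cd274 and Lag3 moved with the endothelial score, which was examined after its values were seen. The slope was 0.82 (SE 0.13, adjusted p = 4.14e-05) for Cd274 and 0.55 (SE 0.14, adjusted p = 0.00601) for Lag3, against 0.19 (SE 0.15, adjusted p = 0.401) for Havcr2, with 13.2% of genes called upward. Without the 3 libraries, the slopes were 0.35 (adjusted p = 0.351) for Cd274, 0.62 (adjusted p = 0.119) for Lag3 and 0.71 (adjusted p = 0.0259) for Havcr2. Cd274 also had positive slopes on the fibroblast score (0.42, adjusted p = 0.0115) and the adipocyte score (0.23, adjusted p = 0.00591) and a negative one on the epithelial score (-1.65, adjusted p = 0.0414), where 10.3%, 9.39% and 7.56% (either direction) of genes were called. By the same edgeR test Lag3 passed on the fibroblast (0.33, adjusted p = 0.0275) and adipocyte scores (0.16, adjusted p = 0.0314). It did not pass on the epithelial score (-0.70, adjusted p = 0.415). Several scores were thus high in the same tumors, and the part of each cell type in the Cd274 level cannot be told apart here.

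**Figure D4:**
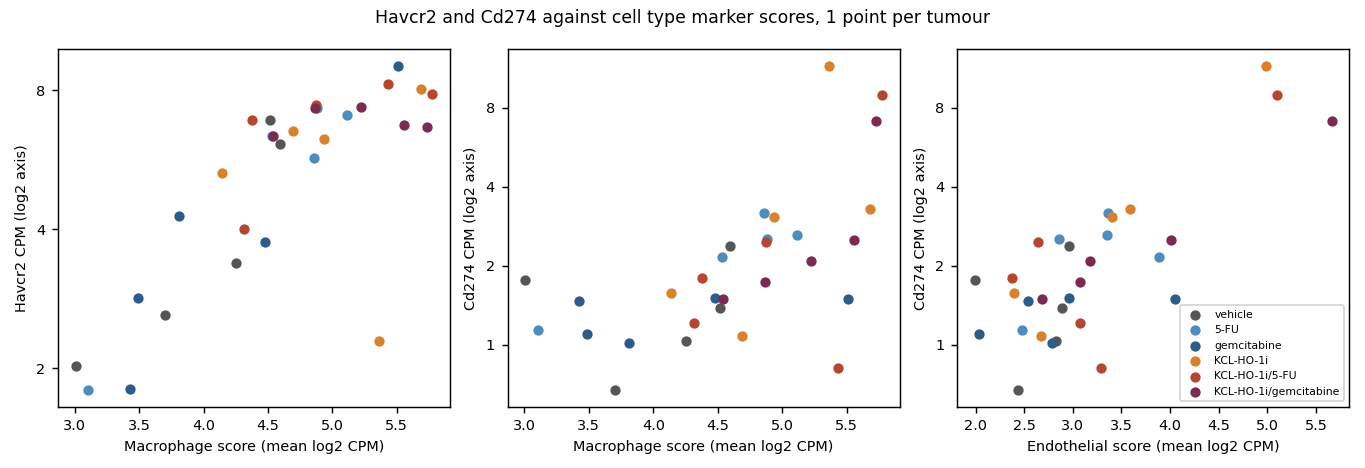
Levels of Havcr2 against the macrophage score (left) and of Cd274 against the macrophage (middle) and endothelial (right) scores are shown for 30 tumors, with CPM on log2 vertical axes, scores as mean log2 CPM and colors for the groups. Havcr2 climbs with the macrophage score apart from 1 KCL-HO-1i tumor at 2.29 CPM, and the 3 tumors of highest Cd274 (11.6, 8.98 and 7.14 CPM) sit alone at endothelial scores of 4.99 to 5.66.

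The genes whose pattern lay closest to each checkpoint gene were ranked by Spearman's rho of log2 CPM over 30 libraries after the group means were taken off. For Cd274 they were Itgam, the integrin CD11b of myeloid cells and itself on the macrophage list (0.835), the monocyte chemokine Ccl7 (0.814) and the phosphodiesterase Pde3a (0.802). For Havcr2 they were Mpeg1, the macrophage perforin-2 (0.856), Tifab (0.845) and Itgax, the integrin CD11c of dendritic cells and macrophages (0.819). For Lag3 they were Stard8 (0.778), the leukocyte tetraspanin Cd37, which is on the pan-leukocyte list (0.746), and Ccdc88b (0.740).

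Lgals9 kept other company, namely Oas3 (0.891) and Oasl2 (0.861), both interferon-induced oligoadenylate synthetase family genes, and Tlr3, a sensor of double-stranded RNA (0.854). Of these, Oas3 carries an IRF match in the window printed above, as Lgals9 does. Over the 18 closest genes of all 6 members, 15 had a promoter window and 2 of them, Klhl22 and Oas3, an IRF match. Cd276 lay closest to Pxdn, a peroxidase of the extracellular matrix (0.786), BC034090 (0.741) and Asap2 (0.739), and Vsir to the ubiquitin ligase adaptor Klhl22 (0.831), the helicase Dhx40 (0.820) and Syt15 (0.782). Between the checkpoint genes themselves, rho was highest for Cd276 with Vsir (0.596) and for Cd274 with Lgals9 (0.460), and the ligand and receptor pair Lgals9 and Havcr2 stood at 0.322. These values share libraries and depth and are descriptions.

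In the wider pathway, no gene of the 4 lists passed the adjusted threshold by edgeR in the KCL-HO-1i average. Counts at an unadjusted p are to be read against the 23% of all tested genes that passed it in this average, and counts past the limits of the authors upward against 9.24%. Both shares are from the edgeR fit on all libraries. No such share was taken for DESeq2, limma-voom, the pan-leukocyte covariate or the fit without the 3 libraries of high endothelial score. Of 9 tested costimulatory ligands and receptors (of 16 listed), 0 passed the adjusted threshold by edgeR and 1 passed unadjusted, Cd86, a ligand of both CD28 and CTLA-4 that antigen-presenting cells carry. Cd86 stood at 2.33 ± 1.19, 3.26 ± 0.675 and 3.07 ± 1.51 CPM after vehicle, 5-FU and gemcitabine (SD, n = 5). It stood at 3.87 ± 0.524, 5.45 ± 2.11 and 4.93 ± 1.29 CPM with KCL-HO-1i alone, the 5-FU combination and the gemcitabine combination. The KCL-HO-1i average of Cd86 was 0.72 (log2 units, SE 0.20, adjusted p = 0.056). It passed by DESeq2 and by limma-voom, 1 gene in each. Next in the list were Tnfsf18, the GITR ligand (0.56, SE 0.29), and Cd40 (0.45, SE 0.25), both with an unadjusted p above 0.05.

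Of 19 other inhibitory ligands and receptors tested (of 24), 0 passed adjusted and 6 unadjusted (23% of all tested genes), 5 of them past the limits of the authors upward (9.24%). The leading ones were Vsig4, a complement receptor of macrophages that inhibits T cells (1.78, SE 0.60, adjusted p = 0.0867), Cd200r1, the myeloid receptor for CD200 (1.36, SE 0.49, adjusted p = 0.103), and Entpd1, the ectonucleotidase CD39 (0.63, SE 0.24, adjusted p = 0.114). Vsig4 lay near the floor, with mean levels of 0.169, 0.212 and 0.34 CPM after vehicle, 5-FU and gemcitabine. They were 1.23, 0.703 and 0.611 CPM with KCL-HO-1i alone, the 5-FU combination and the gemcitabine combination. In these libraries 3 reads corresponded to 0.215 to 0.302 CPM, so its fold change rests on few reads. Vsig4 and Cd200r1 passed by DESeq2, and limma-voom called 0. Without the 3 libraries of high endothelial score, 1 of the 19, Vsig4, stayed past the limits of the authors.

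Of 16 inducers and regulators of PD-L1 tested, 0 passed adjusted by edgeR, DESeq2 or limma-voom and 2 passed unadjusted by edgeR (23% of all tested genes), namely the interferon gamma receptor chains Ifngr1 (0.32, SE 0.13, adjusted p = 0.129) and Ifngr2 (0.19, SE 0.07, adjusted p = 0.103), while Myc stood at -0.25 (SE 0.13, adjusted p = 0.257). Of 8 signalling partners of the receptors tested (of 9), 0 passed adjusted and 3 unadjusted by edgeR (23% of all tested genes). These were the inositol phosphatase SHIP1, Inpp5d (0.68, SE 0.19, adjusted p = 0.058), Fgl2, a ligand of inhibitory Fc receptors (0.78, SE 0.30, adjusted p = 0.128), and Bag6, a TIM-3 partner (-0.14, SE 0.05, adjusted p = 0.0843). DESeq2 called Inpp5d and Bag6, and limma-voom called 0. The 4 lists had median log2 fold changes of 0.45, 0.18, 0.05 and 0.12 in the average, beside a median near 0 over all genes. Without the 3 libraries of high endothelial score, 1 costimulatory gene (Tnfsf18 in place of Cd86), 0 inducers and 0 signalling partners were past the limits of the authors upward. With the pan-leukocyte score as a covariate, the 4 lists held 1 (Tnfsf9), 0, 0 and 0 such genes.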

How the data were processed

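Total RNA of 30 tumors was made into stranded libraries. Per the methods and the submitters' processing notes, the authors used FastQC 0.11.9, STAR 2.7.9a and Salmon 1.9.0 (build mm10) and summed transcripts to genes, and the deposited table holds expected counts per gene, not scaled by length or library size (38% of values are not whole). Here the counts were rounded and fitted with edgeR 4.0.16 in R 4.3.3 (TMM, filterByExpr by group with a minimum count of 10, robust quasi-likelihood, 6 group means over all libraries). CPM used TMM effective library sizes, and marker scores a prior count of 2. DESeq2 1.42.0, limma-voom (limma 3.58.1), RLE scaling, no filter, a replicate block, the code number of the labels (13 codes, 7 in several groups, meaning not stated) and a pan-leukocyte covariate were alternatives, as was leaving out each library. The edgeR fit was tested on simulated data. In the limma-voom fit each library was weighted by its quality. Genes below the filter were compared by exact permutation on log2(CPM + 1). Per-kb levels used GENCODE M21 union exons (GRCm38). Promoters came from RefSeq GRCm38.p6.

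The checkpoint genes, marker lists and pathway lists were chosen with earlier results of these data known. Named genes were the 10 checkpoint genes, the 3 closest genes of each, and up to 3 of smallest p per pathway list. The endothelial and other non-immune scores, and leaving out 3 libraries, were added after the values were seen. P-values are two-sided, measure the spread between these tumors and were adjusted over 13663 genes. Limits set by 3 reads take in counting error alone, because PCR duplicates of a molecule were counted too. Chi-square per degree of freedom between libraries of a group was at least 20.7, so none was a repeat. Authors' comparisons were not used.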

Additional observations from a re-analysis of the deposited data

Results flagged for a closer look

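Of 60 sets of 5 levels (10 genes in 6 groups), 6 held a tumor whose gap to its nearest neighbor was more than 0.71 of the group's range. Chance gives about 1 in 20 for independent, normally distributed values. Sets of few reads need not follow that share, and the sets share libraries. Tigit with the gemcitabine combination, at 0 reads throughout, could not be flagged. Of these, 3 were Cd274 in the KCL-HO-1i groups, with 11.6 CPM (117 reads) in KCL-HO-1i replicate 4, 8.98 CPM (102 reads) in 5-FU combination replicate 3 and 7.14 CPM (71 reads) in gemcitabine combination replicate 2. The other 3 were Cd276 at 56.9 CPM in gemcitabine combination replicate 3, Lag3 at 2.09 CPM (21 reads) in gemcitabine replicate 5 and Pdcd1lg2 at 0.335 CPM, which was 4 reads, in 5-FU replicate 1. Lag3 in gemcitabine replicate 5 stood in the library with the highest Havcr2 of all 30, 9.04 CPM.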

How the results depend on the processing

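The limits of these data are the depth, which gave few reads for Pdcd1, Ctla4, Tigit and Pdcd1lg2, and the spread among 5 tumors. The count of checkpoint genes past the adjusted threshold was 0 in all 13 comparisons under RLE scaling, no filter, the replicate block, the pan-leukocyte covariate and limma-voom. It was also 0 with the groups compared alone, each library left out in turn and the 3 libraries of high endothelial score left out. The label code is not counted here, because its comparisons with vehicle rest on 1 vehicle tumor. DESeq2 gave 1 for the KCL-HO-1i average (Cd274, 1.04) and 0 elsewhere, and the share of all genes that it called was not taken.

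The same replicate number did not pair tumors across groups: the median correlation of deviations from group means was 0.021 over 75 same-numbered pairs and 0.007 over 300 others, and 8 of 30 libraries correlated best with one of their own number. With the replicate block, the average of Lgals9 was 0.014, and the slope of Cd274 on the pan-leukocyte score missed the threshold (0.81, adjusted p = 0.129), while the slopes of Lag3 passed it on the pan-leukocyte (0.81, adjusted p = 0.0316) and macrophage scores (0.66, adjusted p = 0.0291). With RLE scaling those Lag3 slopes were 0.71 (adjusted p = 0.0446) and 0.59 (adjusted p = 0.0448).

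Directions turned in these cases, none of them called, and the cause was not tested. Of the 4 label codes among vehicle tumors, 1 occurred in another group. With the code as a covariate, vehicle was therefore compared through vehicle replicate 1 alone. In that fit Cd274 was -0.20 for 5-FU, Lag3 was -1.202 for 5-FU, -1.07 for KCL-HO-1i alone, -0.75 for the 5-FU combination and -0.24 for the gemcitabine combination, and the average of Lgals9 was 0.62. With the pan-leukocyte covariate, Cd274 was -0.031 for 5-FU, -0.16 for the 5-FU combination and -0.30 for the gemcitabine combination, Havcr2 -0.14 for KCL-HO-1i alone and -0.11 for the gemcitabine combination, and Lag3 -0.08 for the gemcitabine combination and -0.20 for the average. limma-voom gave -0.052 for the Lag3 average.

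Without the 3 libraries of high endothelial score, 1 gene in place of 2 had a slope past the threshold on each of the pan-leukocyte, macrophage and endothelial scores. It was Havcr2 each time, which had passed on the first 2 scores with all libraries and had not on the endothelial score, where the calls of Cd274 and Lag3 were lost. On leaving out each library in turn, 1 to 3 genes passed on the pan-leukocyte and macrophage scores, 2 on the endothelial and 0 on the T cell score, and the Lgals9 average ran from -0.12 to 0.10. The share of all genes called was not taken in these fits with libraries left out. With the label code, the Cd274 average was 1.46.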
